A study of Homo sapiens with 9 samples.

Results

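The keratin genes described here are 10 that mark the basal, the stress-induced and the luminal cells of breast epithelium. They were chosen by symbol and are 10 of the 56809 rows of the count table. KRT5, KRT14 and KRT17 are the basal keratins, KRT6A, KRT6B and KRT16 the stress-induced ones, and KRT7, KRT8, KRT18 and KRT19 the luminal and simple ones. All 10 passed the filter on low counts.

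RNA was sequenced from 9 libraries of MDA-MB-468, an established cell line from a human breast adenocarcinoma. All cells carried the lentiviral hairpin vector pSicoR: in the Control group it was empty, in the shLMO2-1 group it held one short hairpin and in the shLMO2-2 group another, each named for LMO2, a LIM-domain cofactor of transcription. Each group had 3 libraries. The labels give no time after infection and do not say whether libraries of a group came from separate cultures, so p-values measure the spread between these libraries, which may be technical. The comparisons ask which keratin transcripts differed between cells with a hairpin and cells with the empty vector, and between the hairpins.

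Keratins are the intermediate filament proteins of epithelia. A filament needs a type I chain (KRT14, KRT16, KRT17, KRT18, KRT19) and a type II chain (KRT5, KRT6A, KRT6B, KRT7, KRT8), so the genes are usually described as partners, KRT5 with KRT14 and KRT8 with KRT18. In breast epithelium KRT5 and KRT14 mark the basal layer, KRT8 and KRT18 the luminal layer, and KRT6 and KRT16 are known in skin for their induction in wounds; basal-like breast tumours can express both sets.

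The chains are close in sequence, which bears on how reads are assigned to them. The end of the central rod is among the most conserved stretches of the family, and its 21 coding bases are shown to illustrate how close the members are. The sequences are from the coding parts of GENCODE release 29 transcripts (GRCh38), read 5′ to 3′ on the gene's own strand. Capitals mark bases that differ from KRT5 (type II) or from KRT14 (type I).
KRT5: acttaccgcaagctgctggag
KRT6A: acCtaccgcaagctgctggag
KRT6B: acCtaccgcaagctgctggag
KRT7: acCtaccgcaagctgctggag
KRT8: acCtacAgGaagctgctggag
KRT14: acctaccgccgcctgctggag
KRT16: acctaccgccgcctgctggag
KRT17: acctaccgccgcctgctggag
KRT18: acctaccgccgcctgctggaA
KRT19: acctaccgcAgcctgctCgag
KRT6A, KRT6B and KRT7 each differed from KRT5 at 1 base, KRT8 at 3, KRT18 from KRT14 at 1 and KRT19 at 2. KRT14, KRT16 and KRT17 were identical over these bases.

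Over whole coding sequences KRT6A and KRT6B were 97.5% identical, and KRT6C, which lies beside them, was 97.9% identical to KRT6A and 98.5% to KRT6B. KRT14 and KRT16 were 88.7% identical, KRT14 and KRT17 85.2%, and KRT5 and KRT8 72.8%. Of all 31-base windows of its transcripts, KRT6B shared 57.5% with another of the 10 genes, KRT6C or a keratin pseudogene, and KRT6A shared 42.7%. The share was 33.03% for KRT14, 28.1% for KRT18, 27.5% for KRT16, 22.5% for KRT17, 14.6% for KRT8 and 6.37% for KRT19, against 3.61% for KRT5 and 1.33% for KRT7. Reads from such windows can be moved between copies by the program that assigned them, so KRT6A and KRT6B in particular are uncertain as single genes. As assigned, pseudogenes took at most 0.995% of the summed counts of KRT16 and its pseudogenes in a library. For KRT8 this was 0.413%, for KRT18 0.121%, for KRT17 0.0206% and for KRT19 0.00404%. Windows shared between members are not covered by these values.

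Of the 10 genes, 2 had an entry in the RefSeq promoter table (GRCh38.p14). These 2, KRT5 and KRT8, are shown because no other member had an entry. The 250 bases before the start of KRT5 lie at chr12:52520395-52520644 and those of KRT8 at chr12:52926470-52926719, both read on the minus strand. Both windows lie inside the annotated span of their gene, which holds 11 transcripts for KRT5 and 17 for KRT8. Each is thus the window before the start that RefSeq uses and not before the outermost one. Capitals mark a match to the half-site motif of the p53 family, which includes p63, a factor of basal epithelia.
KRT5 promoter: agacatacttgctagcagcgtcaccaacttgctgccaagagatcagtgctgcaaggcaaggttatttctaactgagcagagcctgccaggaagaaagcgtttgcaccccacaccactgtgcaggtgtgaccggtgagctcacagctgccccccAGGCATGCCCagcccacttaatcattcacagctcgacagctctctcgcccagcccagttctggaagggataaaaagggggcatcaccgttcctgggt
KRT8 promoter: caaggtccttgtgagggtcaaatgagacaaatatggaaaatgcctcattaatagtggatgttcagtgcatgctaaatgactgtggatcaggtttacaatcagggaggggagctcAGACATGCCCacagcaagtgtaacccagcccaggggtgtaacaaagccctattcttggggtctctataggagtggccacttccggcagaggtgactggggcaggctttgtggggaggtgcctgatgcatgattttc
Neither window held AP-1 (TGANTCA), SP1 (GGGCGG) or TATA box letters (TATAAA) on either strand, which were found in 6.60%, 42.3% and 11.1% of 27305 promoters of the same length. The half-site motif was searched after these sequences had been seen, on both strands, and overlaps none of the other motifs. It matched at bases -97 to -88 of KRT5 and -136 to -127 of KRT8, counted from the start, and in 5.53% of all promoters. A match describes the letters, not a bound site.

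The libraries held between 15494486 and 23069456 counts, of which the 10 keratins took 0.952% to 1.24%. LMO2 rested on 4, 35 and 19 counts in the Control libraries, on 2, 1 and 6 with shLMO2-1 and on 1, 4 and 3 with shLMO2-2. Its log2 fold change was -2.44 (SE 0.81) for shLMO2-1 with an adjusted p of 0.0907, and -3.02 (SE 0.82) for shLMO2-2 with an adjusted p of 0.0441 (edgeR's quasi-likelihood test). The library labelled Control replicate 1 thus held as little LMO2 as the hairpin libraries. It also stood apart in the keratins, with the highest KRT6A, KRT6B and KRT17 of its group and the lowest KRT7, KRT8, KRT18 and KRT19, and its chi-square per gene, a measure of how far counts differ after scaling, against the other Control libraries was 25.2 and 17.2, where that pair differed by 6.02. All 10 epithelial markers were expressed, with summed levels between 1808 and 2170 CPM over the 9 libraries and none called against Control. Of 7 hormone receptor luminal markers 4 were tested, with summed levels of 244 to 297 CPM, 1 called with shLMO2-1 and none with shLMO2-2, and PGR and TFF1 at 0 in every library. The called one was XBP1, lower at a mean of 177 CPM against 216 in Control (edgeR adjusted p = 0.0370). With both hairpins ESR1 had lower means than Control, and GATA3 and FOXA1 higher ones, none of them called. Of 9 fibroblast markers 3 were tested, with sums of 13.4 to 19.2 CPM. None was called with shLMO2-1 and 1 with shLMO2-2, FAP, lower at a mean of 0.756 CPM against 2.94 in Control. COL3A1 and LUM were at 0. Of 8 immune markers 3 were tested, with sums of 6.05 to 9.41 CPM and 2 called with each hairpin, and CD3E, LYZ and NKG7 at 0. Of 8 endothelial markers 4 were tested, with sums of 7.23 to 19.4 CPM and none called. Of all genes tested, 8.42% were called with shLMO2-1 and 8.97% with shLMO2-2. The part of the markers in the keratin results was not tested.

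Levels are given as CPM, a gene's count relative to its library's TMM-scaled total. A gene was called at an adjusted p under 0.05 in edgeR's quasi-likelihood test. With shLMO2-1, 3 of the 10 keratins were called against Control, KRT8 as higher and KRT5 and KRT14 as lower, a share to be read against 8.42% of 14709 genes tested (4.54% higher and 3.88% lower). With shLMO2-2, 4 were called, KRT8, KRT18 and KRT19 as higher and KRT14 as lower, where 8.97% of all genes were called (4.94% higher and 4.04% lower). In the mean of both hairpins the same 4 were called in the same directions, where 12.4% of all genes were (6.47% higher and 5.93% lower). The 3 Control libraries serve in all of these contrasts, so their calls are not independent of each other. The median log2 fold change of the 10 genes was -0.15 with shLMO2-1 and 0.20 with shLMO2-2, beside 0.00 over all genes in both.

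**Figure D1:**
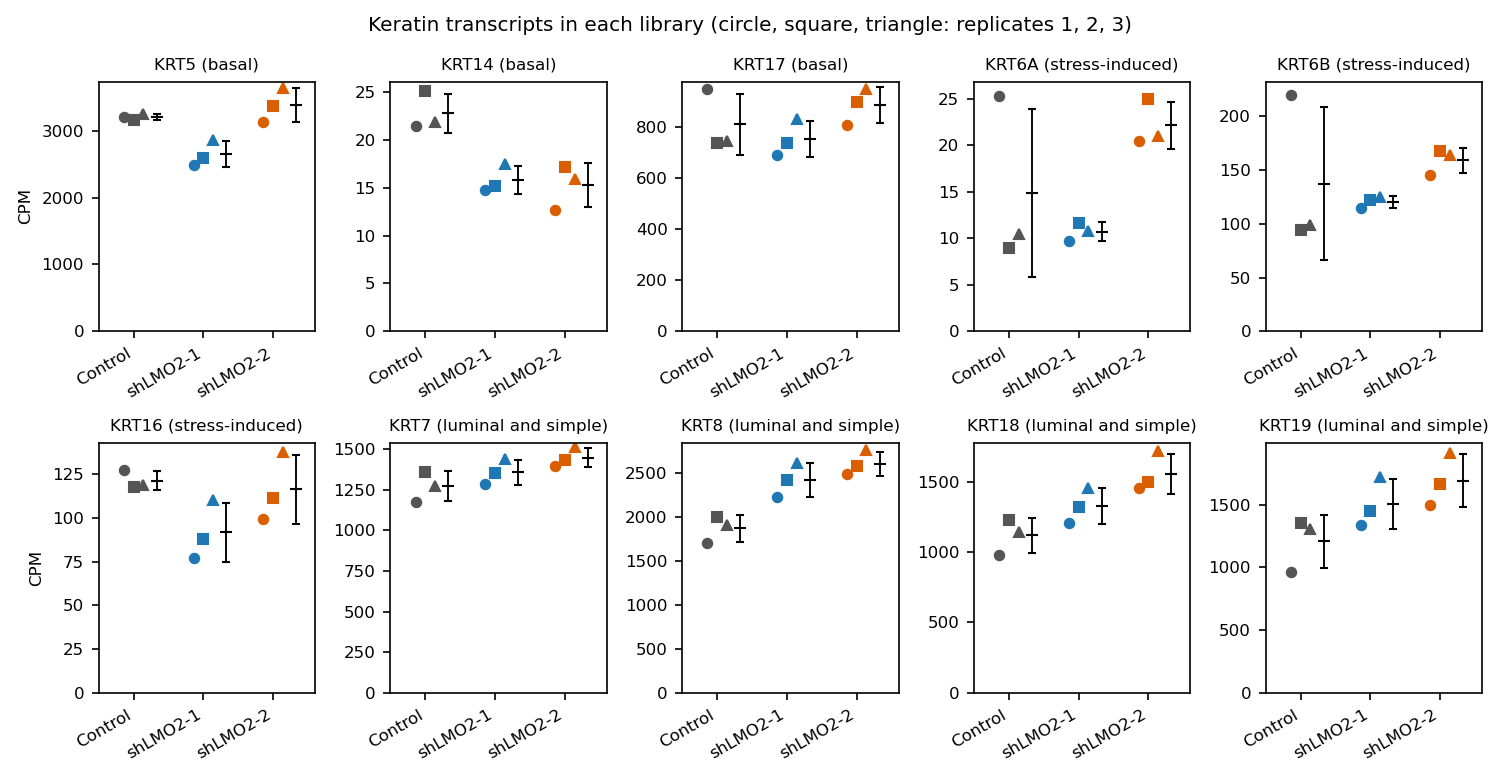
Each panel plots a keratin's level in CPM (linear axis from 0) in the 9 libraries by group, with circles, squares and triangles for replicates 1, 2 and 3 and the mean ± SD of 3 libraries beside them. KRT8 lies above Control in all 6 hairpin libraries and KRT14 below it in all 6, while KRT6A and KRT6B of Control are spread by a single library.

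Among the basal keratins, KRT14 fell with both hairpins, KRT5 fell with shLMO2-1, and KRT17 was not called. KRT14 (chr17:41582279-41586921, minus strand, GRCh38), the type I partner of KRT5, lay at 21.5, 25.1 and 21.8 CPM in Control. It lay at 14.7, 15.2 and 17.5 CPM with shLMO2-1 and at 12.7, 17.1 and 15.95 CPM with shLMO2-2. All 6 hairpin libraries were below all 3 Control libraries, and the hairpin groups overlapped each other. The means were 22.8 ± 2.02, 15.8 ± 1.47 and 15.3 ± 2.30 CPM (SD, n = 3 libraries each). KRT14 changed by -0.53 on the log2 scale (SE 0.13, edgeR adjusted p = 0.0298) with shLMO2-1 and -0.58 (SE 0.13, edgeR adjusted p = 0.0198) with shLMO2-2, which are changes of -30.8% and -33.1%. In a bulk sample, fewer cells that express a gene and less RNA per cell cannot be told apart. KRT14 rested on 259 to 490 counts per library.

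The KRT14 calls did not hold without every single library. With shLMO2-1 the edgeR adjusted p was 0.0884 without Control replicate 2, 0.0660 without Control replicate 3, 0.0997 without shLMO2-1 replicate 1 and 0.104 without shLMO2-1 replicate 2. With shLMO2-2 it was 0.0537 without Control replicate 2, 0.0541 without shLMO2-2 replicate 1 and 0.0523 without shLMO2-2 replicate 3. The fold change kept its sign in all of these, from -0.61 to -0.46 and from -0.68 to -0.47 on the log2 scale. In the mean of both hairpins KRT14 was called without each of the 9 libraries (edgeR adjusted p up to 0.0376). The myoepithelial markers are genes of the contractile basal cells of breast. Their summed level was 23.4 to 27.4 CPM in Control, 18.02 to 19.8 with shLMO2-1 and 16.2 to 18.3 with shLMO2-2. MYLK and TAGLN made up most of that sum. Of those 7 markers 4 were tested, and TAGLN was called as lower with both hairpins and MYLK as lower with shLMO2-2. OXTR and TP63 were not called. Their means were 1.81 and 1.52 CPM in Control, 2.12 and 1.65 with shLMO2-1, and 1.66 and 0.865 with shLMO2-2. ACTA2, MYH11 and CNN1 reached at most 0.359, 0.235 and 0.478 CPM. The part of these markers in the KRT14 result was not tested.

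KRT5 (chr12:52514575-52520687, minus strand), the type II keratin of basal cells, was the most abundant of the 10 in Control, at 3208, 3156 and 3245 CPM. It lay at 2483, 2594 and 2867 CPM with shLMO2-1, with all 3 libraries below Control. With shLMO2-2 it lay at 3134, 3364 and 3642 CPM, around the Control values. The Control libraries agreed within 1.03-fold, the smallest spread of any of the 10 genes in that group. KRT5 fell by 0.27 on the log2 scale with shLMO2-1 (SE 0.065, edgeR adjusted p = 0.0272), a change of -17.3%. With shLMO2-2 its log2 fold change was 0.08 (95% interval -0.06 to 0.22, edgeR adjusted p = 0.504). The shLMO2-1 call was lost without Control replicate 3 (edgeR adjusted p = 0.0912), shLMO2-1 replicate 1 (0.0955) or shLMO2-1 replicate 2 (0.0896).

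KRT17 (chr17:41619441-41624842, minus strand), a type I keratin of basal cells and of injured epithelium, was not called in any contrast. Its level was 950, 740 and 747 CPM in Control, 691, 740 and 831 CPM with shLMO2-1 and 809, 900 and 950 CPM with shLMO2-2. The groups overlapped. Its log2 fold change was -0.11 (95% interval -0.34 to 0.12, edgeR adjusted p = 0.578) with shLMO2-1 and 0.13 (-0.10 to 0.35, edgeR adjusted p = 0.502) with shLMO2-2. Without the library labelled Control replicate 1 the first of these was 0.01, so its sign rests on that library.

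The stress-induced keratins were not called against Control, and 1 library set the spread of KRT6A and KRT6B. KRT6A (chr12:52487174-52493257, minus strand), a type II keratin of activated keratinocytes, lay at 25.3, 8.91 and 10.4 CPM in Control. It lay at 9.66, 11.7 and 10.8 CPM with shLMO2-1 and at 20.4, 25.0 and 21.0 CPM with shLMO2-2. The library labelled Control replicate 1 was the highest of all 9, while the other Control libraries lay near or below the shLMO2-1 values, and all 3 shLMO2-2 libraries were above all 3 shLMO2-1 libraries. KRT6A gave a log2 fold change of -0.47 (SE 0.32, edgeR adjusted p = 0.408) with shLMO2-1 and 0.58 (SE 0.30, edgeR adjusted p = 0.272) with shLMO2-2. Without that Control library the values were 0.14 (edgeR adjusted p = 0.611) and 1.18 (edgeR adjusted p = 0.000740). That library was marked out in part by its KRT6A and KRT6B, so leaving it out lowers their spread by construction. Adjusted p without it are therefore no independent support for a change in these genes.

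KRT6B (chr12:52446651-52452126, minus strand), its near copy, was also highest in the library labelled Control replicate 1: 220, 93.9 and 98.5 CPM in Control, 114, 122 and 125 CPM with shLMO2-1 and 146, 168 and 164 CPM with shLMO2-2. The highest Control library was 2.34 times the lowest, and for KRT6A 2.84 times, against at most 1.40 times for the other 8 genes. The log2 fold change of KRT6B was -0.19 (SE 0.26, edgeR adjusted p = 0.712) with shLMO2-1 and 0.21 (SE 0.26, edgeR adjusted p = 0.660) with shLMO2-2. Without the library labelled Control replicate 1 both were called, at 0.32 (edgeR adjusted p = 0.0257) and 0.72 (edgeR adjusted p = 0.000382), and the first had changed its sign. These adjusted p have the same limit as those of KRT6A without that library. KRT6B took 86.9% to 92.2% of the counts of KRT6A, KRT6B and KRT6C together, and KRT6C held at most 3.46 counts in a library. Summed before the fit, the 3 copies gave -0.21 (edgeR adjusted p = 0.670) and 0.25 (edgeR adjusted p = 0.598) with all 9 libraries.

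KRT16 (chr17:41609778-41615899, minus strand), the type I partner of the KRT6 chains, lay at 128, 118 and 119 CPM in Control, 77.2, 88.0 and 110 CPM with shLMO2-1 and 99.5, 112 and 138 CPM with shLMO2-2. With shLMO2-1 all 3 libraries were below Control, and with shLMO2-2 they lay on both sides of it. The log2 fold change was -0.40 (SE 0.14) with shLMO2-1 and missed the threshold (edgeR adjusted p = 0.0959). With shLMO2-2 it was -0.06 (95% interval -0.36 to 0.24, edgeR adjusted p = 0.821). Without shLMO2-1 replicate 3, the highest library of its group, the first was -0.56 and was called (edgeR adjusted p = 0.0420). With all libraries it was called at -0.40 by DESeq2 (adjusted p = 0.0396) and with no filter on low counts in edgeR (adjusted p = 0.00101).

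The luminal and simple keratins gave 1 call with shLMO2-1 and 3 with shLMO2-2, all higher: KRT8 rose with both, KRT18 and KRT19 rose with shLMO2-2, and KRT7 was not called. KRT8 (chr12:52897187-52949954, minus strand), the type II keratin of simple epithelia, lay at 1705, 2000 and 1913 CPM in Control. It lay at 2228, 2429 and 2612 CPM with shLMO2-1 and at 2488, 2579 and 2760 CPM with shLMO2-2. All 6 hairpin libraries were above all 3 Control libraries. The means were 1872 ± 152, 2423 ± 192 and 2609 ± 139 CPM (SD, n = 3 libraries each). KRT8 rose by 0.37 on the log2 scale (SE 0.074, edgeR adjusted p = 0.0123), or 29.4%, with shLMO2-1, and by 0.48 (SE 0.074, edgeR adjusted p = 0.00343), or 39.3%, with shLMO2-2. It was the only one of the 10 that was called with both hairpins in every alternative at the 0.05 threshold with no minimum fold, with adjusted p from 9.63e-06 to 0.0490 for shLMO2-1 and from 3.16e-09 to 0.0191 for shLMO2-2 (edgeR, limma-voom and DESeq2).

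KRT18 (chr12:52948871-52952901, plus strand), the type I partner of KRT8, lay at 983, 1231 and 1147 CPM in Control, 1206, 1324 and 1458 CPM with shLMO2-1 and 1455, 1501 and 1719 CPM with shLMO2-2. All shLMO2-2 libraries were above Control, while the lowest shLMO2-1 library lay below the highest Control one. KRT18 rose by 0.48 (SE 0.096, edgeR adjusted p = 0.0134) with shLMO2-2 and gave 0.25 (SE 0.096, edgeR adjusted p = 0.142) with shLMO2-1. The shLMO2-2 call was lost without shLMO2-2 replicate 3, at 0.39 (edgeR adjusted p = 0.0560). In the mean of both hairpins KRT18 was called at 0.36 (SE 0.084, edgeR adjusted p = 0.0190), and not without Control replicate 3 (edgeR adjusted p = 0.0619). KRT8 and KRT18 overlap on opposite strands, with 525 exonic bases in common, 16.3% of the exonic bases of KRT18 and 7.63% of those of KRT8. Whether strand was used in counting is not given in the sources used here, so reads from those bases are uncertain for both.

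KRT19 (chr17:41523617-41528308, minus strand), a type I keratin with a very short tail, lay at 965, 1353 and 1302 CPM in Control, 1338, 1451 and 1723 CPM with shLMO2-1 and 1494, 1668 and 1916 CPM with shLMO2-2. The shLMO2-2 libraries were above Control and the shLMO2-1 libraries overlapped it. KRT19 rose by 0.49 with shLMO2-2 (SE 0.13, edgeR adjusted p = 0.0468) and gave 0.32 with shLMO2-1 (SE 0.13, edgeR adjusted p = 0.175). The call sat close to the threshold and was lost when any 1 of 7 libraries was left out. Its edgeR adjusted p was 0.0841 without the library labelled Control replicate 1 and 0.0823 without Control replicate 3. Leaving out shLMO2-1 replicate 1 gave 0.0522 and replicate 2 gave 0.0749. Each shLMO2-2 library ended the call as well (replicate 1, 0.0510; replicate 2, 0.118; replicate 3, 0.168). With all libraries, upper-quartile scaling gave an adjusted p of 0.0521 and a fit of the compared groups alone 0.0659 in edgeR. In the mean of both hairpins KRT19 was called at 0.40 (SE 0.12, edgeR adjusted p = 0.0481). That call was lost under upper-quartile scaling (edgeR adjusted p = 0.0547) and without the library labelled Control replicate 1 (0.119), Control replicate 3 (0.0854), shLMO2-1 replicate 2 (0.0785) or 3 (0.0846), or shLMO2-2 replicate 2 (0.0839) or 3 (0.0888).

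KRT7 (chr12:52232520-52252186, plus strand), a type II keratin of ducts and glands, lay at 1176, 1360 and 1275 CPM in Control, 1282, 1355 and 1436 CPM with shLMO2-1 and 1397, 1435 and 1511 CPM with shLMO2-2. All shLMO2-2 libraries were above Control. Its log2 fold change was 0.10 (95% interval -0.05 to 0.24, edgeR adjusted p = 0.405) with shLMO2-1 and 0.19 (0.05 to 0.33, edgeR adjusted p = 0.0966) with shLMO2-2. Its exons share 282 bases with the antisense gene KRT7-AS and 32 with the pseudogene KRT87P, which is 6.89% and 0.782% of them.

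**Figure D2:**
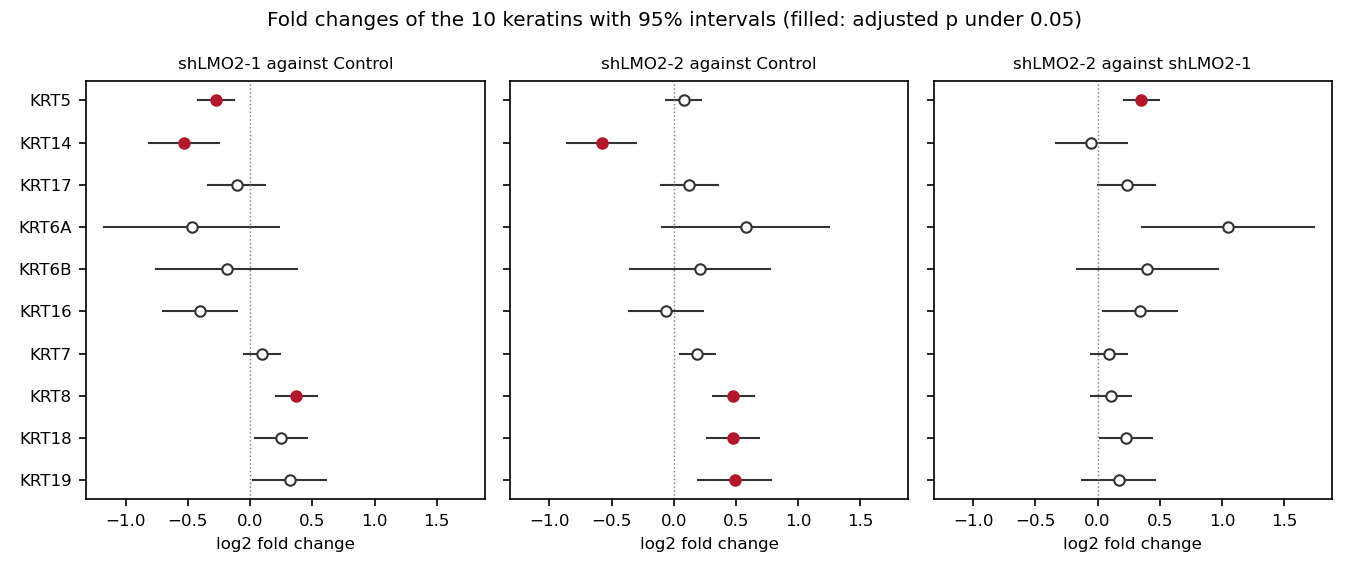
The log2 fold change of each keratin (points) is drawn with its 95% interval (lines) for shLMO2-1 against Control, shLMO2-2 against Control and shLMO2-2 against shLMO2-1, with filled points for calls at an adjusted p under 0.05. KRT14 is filled to the left and KRT8 to the right in both contrasts with Control, and KRT5 alone is filled between the hairpins.

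Counting only whether libraries overlapped, 4 of the 10 keratins had no overlap between shLMO2-1 and Control (KRT5, KRT14, KRT16 and KRT8) where 28.3% of all tested genes had none. With shLMO2-2 it was 5 of 10 (KRT14, KRT7, KRT8, KRT18 and KRT19) beside 29.9% of genes. With all 6 hairpin libraries against Control it was 2 of 10, KRT14 and KRT8, beside 16.7%. With so few genes, these counts do not set the 10 apart from the rest of the table.

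**Figure D3:**
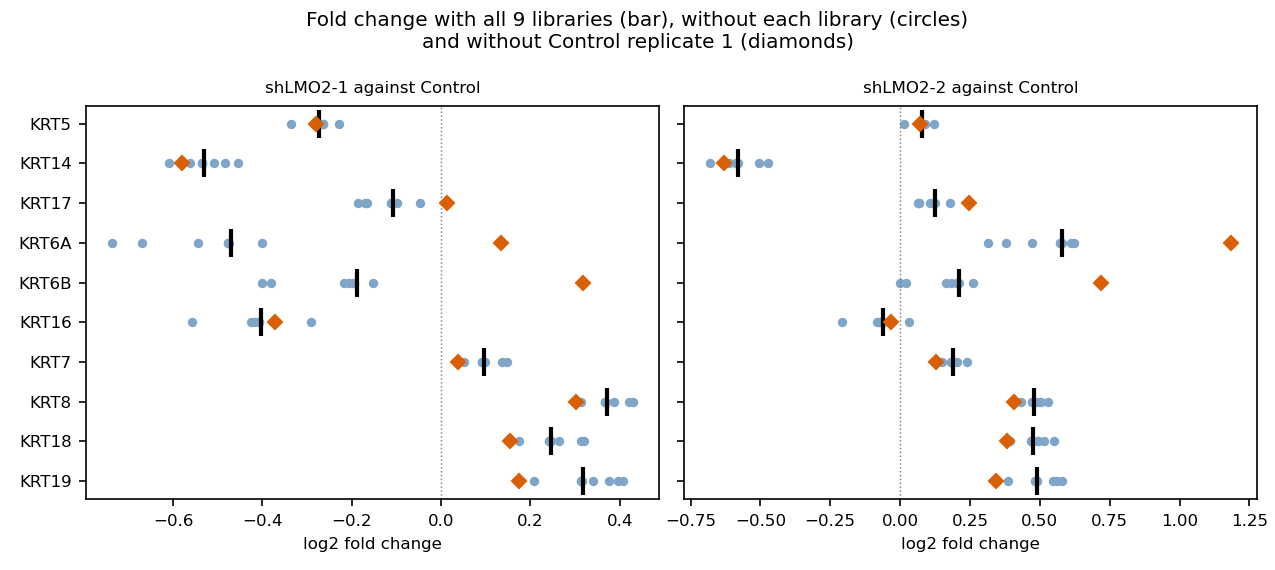
The log2 fold change of each keratin against Control is drawn with all 9 libraries (bar), without each library in turn (circles) and without the library labelled Control replicate 1 (diamonds), for shLMO2-1 and shLMO2-2. The diamonds of KRT6A and KRT6B lie apart, at 0.14 and 0.32 with shLMO2-1 and at 1.18 and 0.72 with shLMO2-2, while those of KRT8 stay close to the bar.

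Between the hairpins, KRT5 was the 1 keratin of 10 that was called, where 0.768% of all genes were. Its mean was 2648 ± 198 CPM with shLMO2-1 and 3380 ± 254 CPM with shLMO2-2 (SD, n = 3 libraries each), with no overlap. The log2 difference, shLMO2-2 against shLMO2-1, was 0.35 (SE 0.065, 95% interval 0.21 to 0.49, edgeR adjusted p = 0.0362). This comparison needs no Control library, though all 9 libraries set the estimate of the spread. The call was lost without Control replicate 3 (edgeR adjusted p = 0.0715), without shLMO2-1 replicate 1 (0.164) or 2 (0.189), or without shLMO2-2 replicate 2 (0.137) or 3 (0.125), while the difference stayed between 0.29 and 0.41 over all alternatives.

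The KRT6 genes also had no overlap between the hairpins, so that 3 of 10 keratins had none, beside 18.1% of all genes. KRT6A differed most in size, by 1.05 on the log2 scale (SE 0.31, 95% interval 0.36 to 1.74), but was not called (edgeR adjusted p = 0.208). KRT6B differed by 0.40 (SE 0.26, edgeR adjusted p = 0.676). Both were called without the library labelled Control replicate 1, at 1.05 (edgeR adjusted p = 0.00162) and 0.40 (edgeR adjusted p = 0.0135), with differences that barely moved. That library was marked out in part by these genes and sets much of their spread, so these calls are no independent support. KRT14 gave -0.05 (95% interval -0.33 to 0.24, edgeR adjusted p = 0.946) and KRT8 0.11 (-0.06 to 0.27, edgeR adjusted p = 0.703). Neither was called, and differences within those intervals remain possible. For KRT17, KRT16, KRT7, KRT18 and KRT19 the differences were 0.23, 0.34, 0.09, 0.23 and 0.17, none of them called.

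Levels of different genes can be compared only per length. Counts were divided by the length of each gene's longest GENCODE transcript and scaled to a common library sum, as TPM, the usual unit of level per transcript length. In Control the order was KRT5 at 3572 ± 166 TPM, KRT19 at 2439 ± 342, KRT7 at 2041 ± 71.0, KRT8 at 1842 ± 78.7, KRT18 at 1510 ± 113 and KRT17 at 1255 ± 236. KRT16 followed at 208.6 ± 17.6 TPM, KRT6B at 172 ± 97.0, KRT14 at 38.7 ± 2.36 and KRT6A at 18.5 ± 11.98 (SD, n = 3 libraries). Neighbours whose libraries overlapped were KRT19 and KRT7, KRT18 and KRT17, and KRT16 and KRT6B. KRT5 ranked 16 and KRT14 ranked 4585 of 56809 genes by mean TPM, so the partners of the basal pair were far apart in level.

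With shLMO2-1, KRT19 (2924 ± 282 TPM) and KRT5 (2830 ± 113 TPM) stood at the top and overlapped, followed by KRT8 at 2290 ± 107 TPM, which was now above KRT7 at 2095 ± 49.9 TPM. With shLMO2-2, KRT5 (3514 ± 171 TPM) and KRT19 (3201 ± 311 TPM) again overlapped, KRT8 stood at 2400 ± 60.2 TPM, and KRT6A (25.3 ± 3.20 TPM) overlapped KRT14 (24.2 ± 3.54 TPM) at the bottom. The order depends on the length chosen, since the median annotated transcript of KRT5 has 764 bases and its longest 2531.

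**Figure D4:**
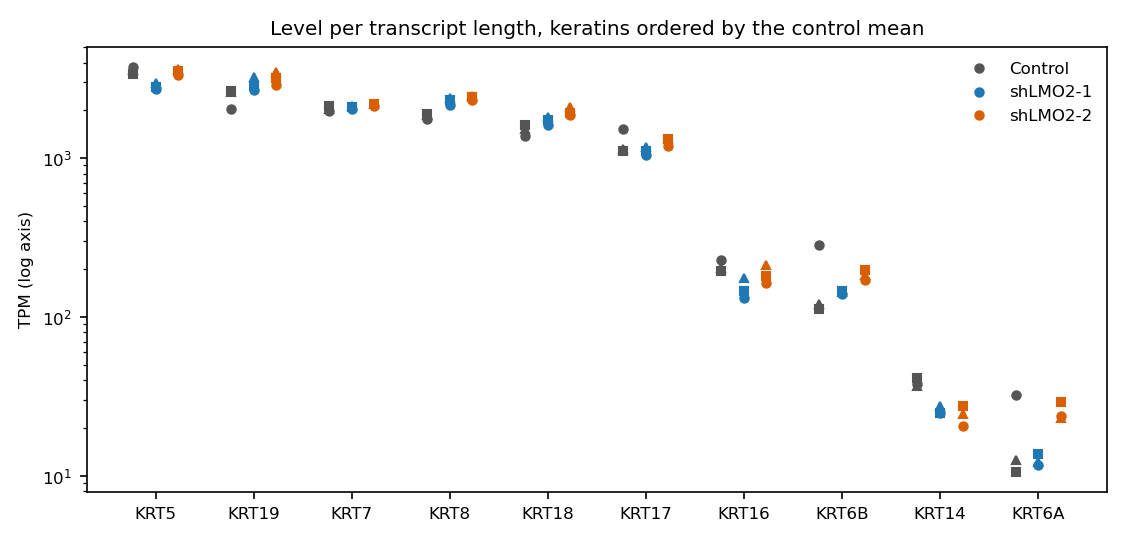
Levels per transcript length (TPM, log axis) of the 10 keratins are plotted for each library, ordered by the Control mean, with circles, squares and triangles for replicates 1, 2 and 3. KRT5, KRT19, KRT7, KRT8, KRT18 and KRT17 form an upper group, the lowest value of which is 1051 TPM, and KRT14 reaches at most 41.3 TPM.

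Per length, the luminal and simple keratins made up 55.1%, 63.0% and 61.3% of the summed TPM of the 10 genes in the Control libraries. They made up 67.5%, 68.0% and 68.0% with shLMO2-1 and 65.4%, 64.7% and 65.4% with shLMO2-2. Every hairpin library was above every Control library. The basal share was 37.2% ± 3.20 in Control, 29.8% ± 0.365 with shLMO2-1 and 32.2% ± 0.329 with shLMO2-2 (SD, n = 3 libraries each), and KRT5 accounts for most of it. The stress-induced share was 4.19% in the library labelled Control replicate 1 and between 2.24% and 2.71% in the other 8. The summed level of all 10 was 13097 ± 78.5 TPM in Control, 13304 ± 734 with shLMO2-1 and 14941 ± 778 with shLMO2-2.

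Expressed as a log2 ratio per length, basal plus stress-induced to luminal keratin was -0.29, -0.77 and -0.66 in Control. It was -1.05, -1.09 and -1.09 with shLMO2-1 and -0.92, -0.88 and -0.92 with shLMO2-2. The hairpin libraries were all below Control, with mean differences of -0.50 and -0.33, and the Control libraries were spread far more widely (SD 0.25) than either hairpin group (0.021 and 0.024). Without the library labelled Control replicate 1 the differences were -0.36 and -0.19.

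Partners did not move together in every pair. KRT5 exceeded KRT14 by 6.62, 6.37 and 6.61 on the log2 scale of TPM in Control, by 6.79, 6.81 and 6.75 with shLMO2-1 and by 7.34, 7.01 and 7.23 with shLMO2-2. Both hairpin groups lay above Control, by means of 0.25 and 0.66. The ratio of KRT8 to KRT18 was 0.29 ± 0.047 in Control, 0.41 ± 0.023 with shLMO2-1, with no overlap, and 0.29 ± 0.054 with shLMO2-2, on the same scale (SD, n = 3 libraries each). The ratio of KRT7 to KRT19 was -0.25 ± 0.17 in Control, -0.48 ± 0.11 with shLMO2-1 and -0.55 ± 0.12 with shLMO2-2, with all hairpin libraries below Control. KRT6A to KRT16 and KRT6B to KRT17 overlapped Control with both hairpins, with differences of 0.10 and 0.80 for the first pair and 0.03 and 0.19 for the second. No p is given for these ratios, which combine genes tested above.

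**Figure D5:**
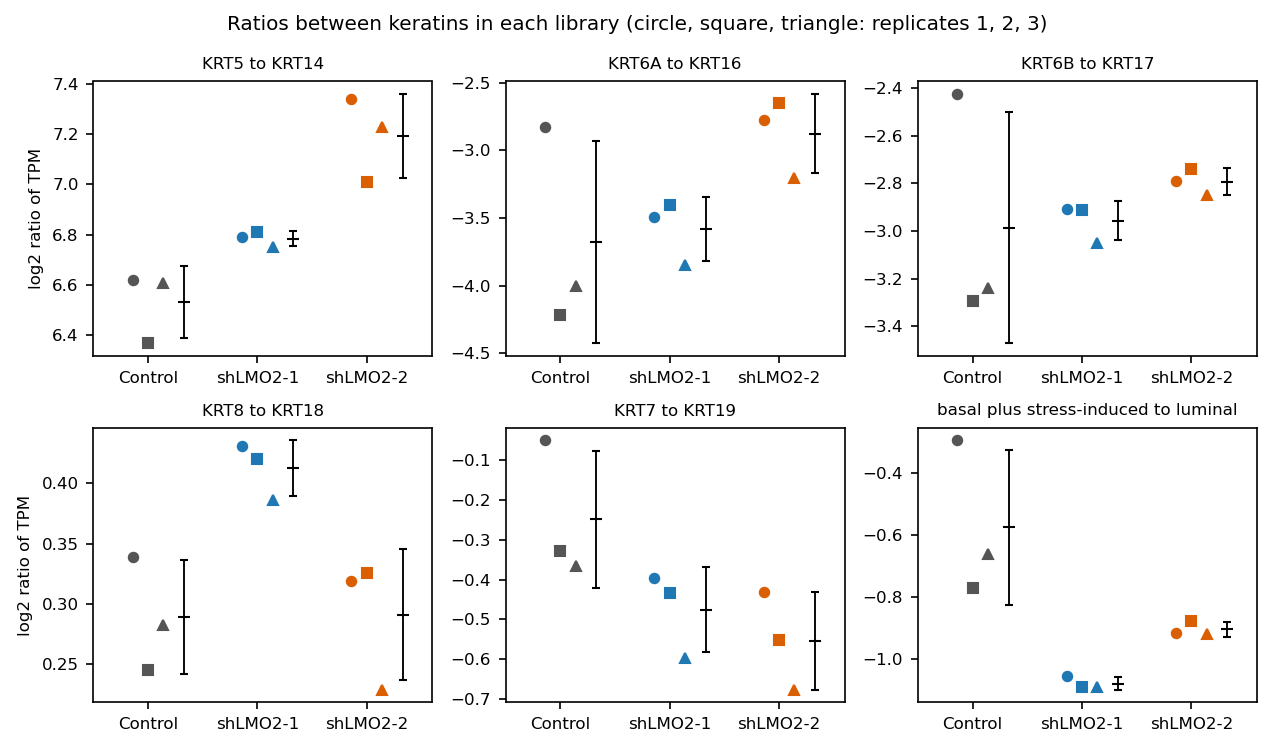
Log2 ratios of TPM between type II and type I partners, and of basal plus stress-induced to luminal keratins, are plotted per library by group, with circles, squares and triangles for replicates 1, 2 and 3 and the mean ± SD of 3 libraries. The axes do not start at 0. The ratio of KRT5 to KRT14 is above Control in all 6 hairpin libraries and the ratio of basal plus stress-induced to luminal keratins is below it in all 6.

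The rest of the keratin family was mostly silent in these cells. Of 45 other keratins in a list of type I and II genes, 29 stayed under 1 CPM in every library, including 12 with no count at all, and 15 were tested. Of those 15, 2 rose and 1 fell with shLMO2-1, 3 rose and 1 fell with shLMO2-2, and 2 were higher with shLMO2-2 than with shLMO2-1. Without the library labelled Control replicate 1, 16 were tested: 3 rose and none fell with shLMO2-1, KRT2 (named after its values were seen) losing its call, and 5 rose and 1 fell with shLMO2-2. With all 9 libraries the median log2 fold change of the 15 was 0.10 and 0.26 against Control, beside 0.00 over all genes. Of all genes tested, 4.54% rose and 3.88% fell with shLMO2-1, and 4.94% rose and 4.04% fell with shLMO2-2. Between the hairpins 0.347% were higher with shLMO2-2. KRT81, a hair-type keratin of type II found in some breast cancers, lay at 237, 268 and 229 CPM in Control, 340, 318 and 393 CPM with shLMO2-1 and 421, 408 and 458 CPM with shLMO2-2. It was above Control in all 6 hairpin libraries and rose by 0.52 (SE 0.089, edgeR adjusted p = 0.00614) and 0.81 (SE 0.089, edgeR adjusted p = 0.000522). KRT81 overlaps KRT86 on the other strand and is uncertain to that extent.

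KRT15, a type I keratin of basal and progenitor cells, rose with shLMO2-1 from 12.2 ± 1.72 to 18.5 ± 2.18 CPM (log2 0.61, SE 0.14, edgeR adjusted p = 0.0274). With shLMO2-2 it lay at 16.97 ± 2.31 CPM, above Control in every library, and missed the threshold (log2 0.48, edgeR adjusted p = 0.0603). KRT10, the type I keratin of differentiating epidermis, lay at 26.7 ± 2.49 CPM in Control, 28.7 ± 3.87 with shLMO2-1 and 43.5 ± 2.22 with shLMO2-2. KRT10 rose with shLMO2-2 by 0.71 (SE 0.11, edgeR adjusted p = 0.00343) and was higher there than with shLMO2-1 by 0.60 (SE 0.11, edgeR adjusted p = 0.0332). KRT4, a type II keratin of stratified mucosa, had its highest mean with shLMO2-2, 96.5 ± 3.33 CPM, against 69.6 ± 3.37 CPM for Control and 66.9 ± 6.27 CPM for shLMO2-1 (SD, n = 3 libraries each). It rose with shLMO2-2 by 0.47 (edgeR adjusted p = 0.00470) and differed between the hairpins by 0.53 (edgeR adjusted p = 0.00877). KRT10 makes up nearly all of the skin keratinocyte markers, whose summed level was 25.7 to 30.8 CPM in Control, 27.4 to 35.4 with shLMO2-1 and 44.5 to 49.6 with shLMO2-2. Of that list LOR was at 0, and FLG and DSG1 reached at most 0.225 and 0.176 CPM. KRT10 overlaps TMEM99 on the other strand and is uncertain to that extent.

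Other filament genes moved in their own ways. Of 14 other intermediate filament genes 9 were tested: 2 rose and 1 fell with shLMO2-1, and 1 fell with shLMO2-2. Without the library labelled Control replicate 1, 1 of them also rose with shLMO2-2. Of all genes, with all 9 libraries, 4.54% rose and 3.88% fell with shLMO2-1, and 4.94% rose and 4.04% fell with shLMO2-2. NES, the nestin filament of progenitor cells, fell with both hairpins, from 8.47 ± 1.12 CPM to 4.52 ± 0.309 (log2 -0.90, SE 0.19, edgeR adjusted p = 0.0151) and 2.44 ± 0.574 (log2 -1.80, SE 0.19, edgeR adjusted p = 0.000486). INA, a neuronal filament chain, rose with shLMO2-1 by 0.42 (edgeR adjusted p = 0.0136), gave -0.18 with shLMO2-2 (edgeR adjusted p = 0.226), and differed between the hairpins by -0.60 (edgeR adjusted p = 0.00775). NEFH, the heavy neurofilament chain, rose with shLMO2-1 by 0.64 (edgeR adjusted p = 0.0348) and gave 0.54 with shLMO2-2 (edgeR adjusted p = 0.0595). VIM, the filament of mesenchymal cells, lay at 224 ± 12.7, 253 ± 12.6 and 209 ± 8.36 CPM and was not called with shLMO2-1 (log2 0.17, edgeR adjusted p = 0.130) or shLMO2-2 (log2 -0.10, edgeR adjusted p = 0.366). VIM and NEFH overlap genes on the other strand.

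Keratin filaments anchor at desmosomes and hemidesmosomes. Of 21 genes of these junctions 17 were tested, of which 1 rose and 1 fell with shLMO2-1 and 1 rose with shLMO2-2, with a median log2 fold change of 0.01 and -0.02. Without the library labelled Control replicate 1, 2 rose with shLMO2-2. Of all genes, with all 9 libraries, 4.54% rose and 3.88% fell with shLMO2-1, and 4.94% rose and 4.04% fell with shLMO2-2. ITGB4, the hemidesmosomal integrin chain, rose from 108 ± 4.17 CPM to 146 ± 7.07 with shLMO2-1 (log2 0.43, SE 0.073, edgeR adjusted p = 0.00608) and to 134 ± 10.7 with shLMO2-2 (log2 0.31, SE 0.073, edgeR adjusted p = 0.0252). PERP, a desmosomal membrane protein, fell by 0.21 with shLMO2-1 (SE 0.054, edgeR adjusted p = 0.0387) and gave -0.10 with shLMO2-2 (edgeR adjusted p = 0.273). ITGB4 overlaps GALK1 on the other strand and is uncertain to that extent.

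Of 23 genes of the cornified envelope, the crosslinked shell of terminally differentiated keratinocytes, 10 were tested. Of these 1 rose with shLMO2-1 and 4 rose with shLMO2-2, none fell, and the median log2 fold change was 0.33 and 0.60. Of all genes tested, 4.54% rose and 3.88% fell with shLMO2-1, and 4.94% rose and 4.04% fell with shLMO2-2. PI3, the protease inhibitor elafin, lay at 127, 137 and 137 CPM in Control, 156, 158 and 178 CPM with shLMO2-1 and 211, 198 and 208 CPM with shLMO2-2. PI3 rose by 0.29 (SE 0.068, edgeR adjusted p = 0.0249) and 0.62 (SE 0.068, edgeR adjusted p = 0.000520). CNFN, cornifelin, rose with shLMO2-2 by 0.80 (SE 0.15, edgeR adjusted p = 0.00972), from 5.04 ± 0.651 to 8.82 ± 0.604 CPM. S100A7, psoriasin, rose with shLMO2-2 by 0.66 (SE 0.15, edgeR adjusted p = 0.0264) and lost that call without the library labelled Control replicate 1, which left 3 of the 4. CALML5, a calcium-binding protein of epidermis, was called in the mean of both hairpins (log2 0.48, edgeR adjusted p = 0.0487) and not with either alone, and lost the call without that library too. These lists were described by counts and medians, and no test of a list was made. The share of all genes called without the library labelled Control replicate 1 is not given here.

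For 3 keratins, the genes outside the 10 with the most similar course over the 9 libraries were sought. The measure was the root mean square difference of log2 CPM, each gene scaled to mean 0 and SD 1, among 11021 genes with at least 5 CPM on average. For KRT14 the nearest were NUS1 (0.277), SNX7 (0.283) and TPMT (0.291), while its nearest fellow keratin was KRT16 at 0.894. For KRT19 they were SNX12 (0.0949), MAPKAPK3 (0.0998) and PIH1D1 (0.115), and KRT7 was the nearest keratin at 0.220. For KRT6A they were TCP11L1 (0.304), AK4 (0.336) and SLC35D1 (0.371), with its near copy KRT6B at 0.370. These 3 keratins were used because their group means had the widest range, 1.04 for KRT6A, 0.58 for KRT14 and 0.50 for KRT19 in log2 CPM. With 11021 genes and 9 libraries, some close matches are expected for any gene. The nearest keratin was sought among only 9, so its distance cannot be set against those of the other genes. Among the nearest keratins alone, the distance was larger for KRT14 (0.894) than for KRT6A (0.370) or KRT19 (0.220).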

How the data were processed

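The authors deposited estimated counts per gene, by symbol, in a single table of 9 libraries. Per the submitters' processing notes, Salmon 0.12, DESeq2 1.22.2 and GRCh38.p12 were used, with no role given; the annotation and the use of strand are not given in the sources used here. Per the labels' protocols, polyadenylated RNA was selected. Counts were rounded to whole numbers and tested with edgeR 4.0.16 (R 4.3.3; quasi-likelihood F-test, TMM scaling, Benjamini-Hochberg adjustment over all genes tested) in a fit of all 9 libraries with a factor of 3 groups. filterByExpr (minimum count 10, minimum total 15) plus LMO2 left 14709 of 56809 genes with 99.91% of the counts. Library totals were 15494486 to 23069456 counts. Standard errors were derived from the log2 fold change and its F statistic.

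The 10 keratins and the lists were chosen with earlier results of these data known. From each list, genes called in at least 1 contrast with a mean of at least 5 CPM were named, at most 4, ordered by p for the hairpins' mean, plus VIM and LMO2; like genes were named for the 3 keratins with the widest group means. Lengths, sequences and positions came from GENCODE release 29 (GRCh38) and RefSeq by symbol, with Biopython 1.88 in Python 3.11.15. The fit was tested on simulated data.

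Alternatives were other scalings (median-of-ratios, upper quartile, total counts), other filters, limma-voom (limma 3.58.1), DESeq2 1.42.0, fits of the compared groups alone, a replicate block, stricter calls, near copies summed, other lengths and leaving out each library. Coding lengths and the lists without Control replicate 1 were added after seeing the data.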

Additional observations from a re-analysis of the deposited data

Results flagged for a closer look

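KRT5 differed between the hairpins in a test of the difference itself. Its log2 difference, shLMO2-2 against shLMO2-1, was 0.35 (SE 0.065, edgeR adjusted p = 0.0362), from 2648 ± 198 CPM to 3380 ± 254 CPM (SD, n = 3 libraries each), and all 3 shLMO2-2 libraries were above all 3 shLMO2-1 libraries. The call was lost when any 1 of 5 libraries was left out (Control replicate 3, shLMO2-1 replicates 1 and 2, shLMO2-2 replicates 2 and 3), with edgeR adjusted p from 0.0715 to 0.189.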

How the results depend on the processing

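KRT8 was called with both hairpins in every alternative at the 0.05 threshold with no minimum fold, and KRT5 and KRT14 kept their sign in each contrast with Control in all of them. Of 790 values of a keratin in a contrast under an alternative, 700 kept their direction and side of the threshold, 42 lost a call, 24 gained one and 24 changed sign. The number of keratins called with shLMO2-1 (3) was 6 with no filter on low counts and ranged from 1 to 4 when a library was left out. With shLMO2-2 (4) it ranged from 1 to 5, for the mean of both hairpins (4) from 2 to 5, and between the hairpins (1) from 0 to 3. Between the hairpins it was 4 with no filter, 2 with DESeq2 and 3 with only the groups compared. At an adjusted p under 0.01 the counts were 0, 1, 2 and 0 in that order, KRT8 being the 1, and no called keratin reached 2-fold, a count of 0 in each contrast. In the main fit 8.42%, 8.97%, 12.4% and 0.768% of all genes were called, in the same order. The shares under the alternatives above are not given here, so these counts cannot be set against them.

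With the replicate block, 6 keratins were called with shLMO2-1 (KRT16 among them, at -0.42, edgeR adjusted p = 0.0160), 5 with shLMO2-2, 5 in the mean and 1 between the hairpins, and calls over all genes went from 1239 to 2214, 1320 to 2377, 1823 to 3024 and 113 to 257. Same-numbered libraries of different groups correlated in their deviations at r from -0.0635 to 0.296, and differently numbered ones at -0.308 to 0.182. Replicates 1 correlated with each other at 0.234 to 0.296 and replicates 3 at 0.140 to 0.212. Replicate 1 against replicate 3 gave -0.308 to -0.153, and replicates 2 gave -0.0635 to 0.0518. Not every library correlated best with its own number, and the labels give the numbers no meaning. They were therefore not taken as pairs, and what libraries of the same number share was not tested.

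Signs changed only where the fold change was small or rested on a Control library. In the mean of both hairpins, KRT17 (0.01) was -0.038 on total counts and -0.000471 with a filter of 10 counts per library, and KRT6B (0.01) was -0.040 on total counts. Leaving out single libraries, the mean ranged from -0.054 to 0.13 for KRT17, from -0.21 to 0.66 for KRT6A and from -0.20 to 0.52 for KRT6B. With shLMO2-1 the ranges were -0.19 to 0.013 for KRT17, -0.74 to 0.14 for KRT6A and -0.40 to 0.32 for KRT6B. With shLMO2-2 they were -0.000924 to 0.72 for KRT6B and -0.21 to 0.030 for KRT16, and between the hairpins -0.14 to 0.063 for KRT14. The ratio of KRT6A to KRT16 with shLMO2-1 ranged from -0.17 to 0.53, that of KRT6B to KRT17 from -0.13 to 0.31, and that of KRT8 to KRT18 with shLMO2-2 from -0.020 to 0.034. The luminal share in Control was 59.8% by the longest transcript and 55.6% by the median length. The cause of these changes was not tested. Scaling moved the median of all genes by at most 0.05 on the log2 scale. Depth limits LMO2, with 1 to 35 counts, more than the keratins, the lowest of which rested on 163 counts.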

Other observations

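Within each hairpin group the replicate 1 library held the lowest CPM of all 10 keratins, while no Control library was lowest in more than 5 of the 10. The mitochondrial share of counts lay between 1.33% and 1.79% and was highest in the replicate 1 library of each group. In the Control group the library labelled Control replicate 1 had 4 LMO2 counts and 25.3 CPM of KRT6A, Control replicate 2 had 35 and 8.91, and Control replicate 3 had 19 and 10.4. The shLMO2-1 libraries had 2, 1 and 6 LMO2 counts and 9.66, 11.7 and 10.8 CPM of KRT6A. With shLMO2-2 the values were 1, 4 and 3 counts and 20.4, 25.0 and 21.0 CPM. Low LMO2 counts thus occurred with both low and high KRT6A, and a relation between the genes was not tested.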
